A study of Mus musculus with 4 samples.

Results

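The aldehyde oxidases and the enzymes that build or use the molybdenum cofactor were followed in HT-22 cells, an immortalised line of mouse hippocampal neurons, with and without overexpression of Nsmce1. The 9 genes were picked by symbol: Aox1, Aox3, Aox4, Xdh, Suox, Mocs1, Mocs2, Gphn and Mocos. They were brought together because Aox3 was already known to be far lower in the overexpressing cells of these libraries, so the values of the members in this contrast are a description. Their limits and their side of the threshold come from the fit over all genes and are evidence of nothing further. Of the 9, 8 were found among the 25050 genes of the deposited table, and Mocos was not analysed here. RNA was sequenced from 2 libraries labelled wild type and 2 labelled Nsmce1 overexpression. All 4 came from the same line over the same range of passages, and the study's description gives the overexpressing cells as carrying an inducible Nsmce1 and the controls as cells in which it was not induced. The number of clones behind the overexpressing cells, the promoter and the inducing agent are not given in the sources used here. Separate cultures are not mentioned for the libraries of either group. The 2 groups are called controls and overexpressing cells from here on.

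Molybdenum enzymes hold the metal in an organic cofactor, which is built in steps by the products of Mocs1, Mocs2 and Gphn. Sulfite oxidase (Suox) uses the cofactor as it is, whereas aldehyde oxidases and xanthine dehydrogenase (Xdh) need it in a sulfurated form. Aldehyde oxidases turn aldehydes and many nitrogen heterocycles, drugs among them, into acids and oxidised rings, and xanthine dehydrogenase carries out the last steps of purine breakdown to urate. Rodents carry a row of aldehyde oxidase genes on chromosome 1 that arose by duplication, and Aox3 is best known from liver.

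Library depth, in whole reads worked back from the deposited values, was 25787452 and 31010351 for the controls and 32516117 and 44602989 with overexpression. Nsmce1 itself, a subunit of the SMC5/6 complex, had 1108 and 1206 normalised reads in controls against 17851 and 16525 with overexpression, so that the libraries and their labels match for this gene. A mean of at least 10 normalised reads was needed for a gene to be tested, and 15540 genes had it. Of these, 16 were higher and 14 lower (limma, adjusted p under 0.05), which is 0.193% of all genes tested. Of 14 neuronal markers 8 were found among the deposited genes and 3 tested (Tubb3, Syn1 and Camk2a). The summed level of the 8 was 1699 to 1930 normalised reads in wild type and 1520 to 1888 in overexpressing libraries. Grin1, a glutamate receptor subunit, and Nefm, a neurofilament, were at 0 in both wild type libraries. Fibroblast markers, 9 of 11 tested, summed to 373284 to 420358 and 338508 to 391053, so the labelled cell type is borne out by few of its markers here.

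Aox3 (ENSMUSG00000064294, chromosome 1) had by far the largest difference of the members. It had 3952 and 3383 normalised reads in controls against 8 and 3.65 with overexpression, from 3143, 3212, 8 and 5 whole reads. Both wild type libraries were high and both overexpressing libraries were close to the limit of counting, and the groups did not overlap. The mean went from 3667 ± 403 to 5.82 ± 3.08 normalised reads (SD, n = 2 in each group), so that 0.159% of the wild type level was left. That is a 630-fold difference of means, and a log2 difference of -9.14 on the log2(value + 1) scale, with a standard error of 0.326 and 95% limits of -9.94 to -8.35. The 4 differences between an overexpressing and a wild type library ran from -9.73 to -8.55. Aox3 was the lowest of all 15540 tested genes by this measure, and the next, Mme, was at -5.43. Mme had 46.5 and 37.9 normalised reads in controls and 0 in both overexpressing libraries. Its difference on this scale is capped by its low wild type level, so the gap also reflects abundance in controls. Aox3 was the 1 of 7 tested members past the threshold, which 0.193% of all tested genes passed in either direction and 0.0901% passed as lower. Since the members were chosen on this contrast, nothing is read from that count or from the rank. The call was lost when wild type replicate 1 was left out, at a log2 difference of -9.03, and when limma was run without a variance trend.

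Aox1 (ENSMUSG00000063558), the aldehyde oxidase directly before Aox3 on the chromosome which is expressed in many tissues, did not share this difference. It had 868 and 758 normalised reads in controls against 818 and 631 with overexpression. The groups overlapped, with overexpression replicate 1 between the wild type libraries and overexpression replicate 2 the lowest. The log2 difference was -0.18, with 95% limits of -0.56 to 0.20, which leave out a 2-fold change in either direction. It was -0.36 without overexpression replicate 1 and 0.01 without replicate 2, and -0.08 and -0.27 without wild type replicates 1 and 2.

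Aox4 (ENSMUSG00000038242), which follows Aox3 and is known from skin and the Harderian gland, was hardly counted. It had 2 and 0 whole reads in controls against 3 and 1 with overexpression, too few to be tested. Aox2 (ENSMUSG00000079554), the last gene of the row and known from the olfactory lining, was not among the 9 genes. It had 0, 0, 0 and 3 reads in the same order. At this depth neither gene shows whether it differed.

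The stretches directly before the starts of Aox1, Aox3 and Aox4 are shown because adjacent genes of 1 family stood so far apart. They are RefSeq promoter sequences of build GRCm38.p6, on the plus strand, ended before the first annotated base of the transcript. Capitals mark matches on either strand to 6 searched motifs. These were the core promoter element TATAAA, the Sp-factor element GGGCGG, the NF-Y element CCAAT, the AP-1 element TGACTCA, the E-box CACGTG and the core of the antioxidant response element, TGACNNNGC.
Aox1 chr1:58029719-58029930: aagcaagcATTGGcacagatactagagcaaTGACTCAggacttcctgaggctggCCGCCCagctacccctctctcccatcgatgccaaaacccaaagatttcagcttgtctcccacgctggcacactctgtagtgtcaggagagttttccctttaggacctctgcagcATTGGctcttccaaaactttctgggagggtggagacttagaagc
Aox3 chr1:58112886-58113129: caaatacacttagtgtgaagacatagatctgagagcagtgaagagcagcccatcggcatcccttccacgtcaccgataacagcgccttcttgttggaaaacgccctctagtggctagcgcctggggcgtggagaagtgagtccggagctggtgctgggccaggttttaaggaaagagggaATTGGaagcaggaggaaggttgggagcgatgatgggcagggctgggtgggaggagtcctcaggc
Aox4 chr1:58210147-58210396: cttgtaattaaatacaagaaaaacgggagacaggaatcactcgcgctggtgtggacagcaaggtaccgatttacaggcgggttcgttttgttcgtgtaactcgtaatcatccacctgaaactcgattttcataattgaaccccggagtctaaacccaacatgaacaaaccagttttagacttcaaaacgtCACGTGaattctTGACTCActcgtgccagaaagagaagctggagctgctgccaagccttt

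Within 250 bases before the RefSeq start, Aox3 held 1 match, a CCAAT motif 70 bases upstream. CCAAT stands in 33.8% of the 32817 mouse windows of this length. Aox1 held 2 CCAAT matches, 2 GGGCGG matches (in 32.7% of windows), the second of them past the end of the printed stretch, and 1 TGACTCA match (in 4.46%). Aox4 held 1 TGACTCA and 1 CACGTG match (in 6.02%). TATAAA, found in 12.4% of windows, and TGACNNNGC, in 10.2%, matched none of the 3. A match is a run of letters only, and binding was not measured in these cells.

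**Figure D1:**
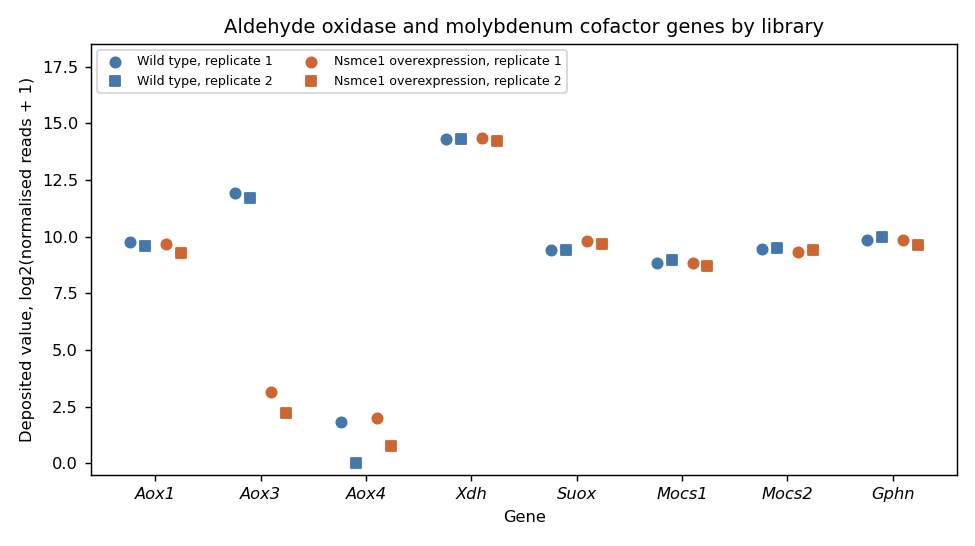
Deposited values, as log2 of normalised reads plus 1, for the 8 members (x axis), with 1 point per library. Wild type libraries are blue, overexpressing libraries orange, circles replicate 1 and squares replicate 2. Aox3 lies near 12 in wild type and at 3.17 and 2.22 in overexpressing cells, while the other members differ little between the colours.

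The aldehyde oxidase transcripts are related, but no pair of them shared 50 bases in a row exactly. The longest exact run was 46 bases, between Aox2 and Aox4. Matches of reads with mismatches were not examined. In the GENCODE M21 principal transcripts, the coding sequences of Aox1 and Aox3 were 69.8% identical over 3918 aligned bases. The longest run of identical bases in their transcripts was 20, and 0 windows of 50 bases were shared. Aox3 and Aox4 were 68.8% identical with a longest shared run of 22, and Aox3 and Xdh 65.5% with a run of 16. Aox3 overlaps no other gene of the table in that annotation. The authors' handling of reads with several matches is unknown.

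Per kilobase of transcript, Aox3 was the most abundant aldehyde oxidase of wild type cells. Its level was 4.37 and 4.28 times that of Aox1 in the controls, and 0.00939 and 0.00556 times in the overexpressing ones. Of all reads assigned to Aox1, Aox2, Aox3 and Aox4, Aox3 took 82.0% and 81.7% in controls and 0.965% and 0.573% with overexpression. The normalised reads of the 4 genes together went from 4822 and 4141 to 829 and 637. Nearly all aldehyde oxidase reads that remained were those of Aox1.

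The genes around the aldehyde oxidases were examined because position was no part of the choice of members. Of the 10 named protein-coding genes on each side in RefSeq order, 16 were tested, and 0 were past the threshold by limma (0 had an unadjusted p under 0.05, which 7.92% of all tested genes had). Their median log2 difference was 0.06, against 0.01 for all genes tested, and 13 lay above and 3 below 0. Sgo2a (Sgol2a in the table), a protector of centromeric cohesin and the last gene before Aox1, had 3290 and 3513 normalised reads in controls against 3024 and 3531 with overexpression. Its log2 difference was -0.06 (SE 0.101). Bzw1, a regulator of translation initiation and the first gene after Aox2, had 11711 and 12214 against 11560 and 13103, a log2 difference of 0.04 (SE 0.0863). Both pairs of libraries overlapped, so the abundant genes at either end of the row did not show the difference of Aox3.

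The genes further out that are named here had log2 differences of -0.07 to 0.63. On the near side Kctd18 stood at 0.12, Maip1 at 0.10, Tyw5, a tRNA hydroxylase, at 0.20, and Mars2, the mitochondrial methionyl-tRNA synthetase, at 0.03 on the log2 scale. On the far side the splicing kinase Clk1 stood at 0.03, Ppil3 at 0.07, Nif3l1 at -0.03, the origin recognition subunit Orc2 at 0.14, Fam126b at 0.07 and the complex I subunit Ndufb3 at -0.07. The apoptosis genes Cflar and Casp8 stood at 0.12 and 0.03. Flacc1, at 6.29 and 23.2 normalised reads in controls against 18 and 21.2 with overexpression, had the largest value, 0.63, with the widest error (SE 0.654). The lowest limma adjusted p among the 16 was 0.753.

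**Figure D2:**
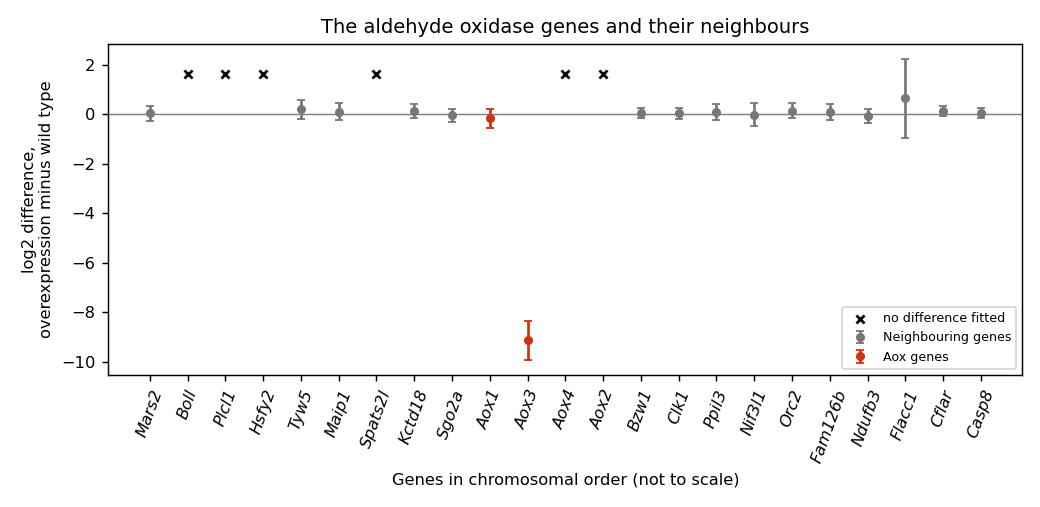
Log2 difference, overexpression minus wild type, for the aldehyde oxidase genes (red) and protein-coding neighbours on both sides (grey), in chromosomal order and not to scale. Bars are 95% limits from limma, and crosses mark genes with no fitted difference. Aox3 is at -9.14, and the 15 fitted neighbours shown lie between -0.07 and 0.63.

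Xdh (ENSMUSG00000024066, chromosome 17), xanthine dehydrogenase, is the relative of the aldehyde oxidases that HT-22 cells expressed most. It had 20095 and 20245 normalised reads in controls against 21090 and 18903 with overexpression. The overexpressing libraries lay on either side of the wild type ones. The log2 difference was -0.01, with 95% limits of -0.21 to 0.18, and it lay above 0 with quantile normalization, with chromosome medians removed and without overexpression replicate 2. Per kilobase Xdh stood at 4385 normalised reads in wild type, rank 477 of the 15503 tested genes with a known length, and at rank 476 in overexpressing cells. Aox3 stood at 19.6% and 16.7% of the Xdh level per kilobase in the controls, and at 0.0379% and 0.0193% in the overexpressing ones.

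Suox (ENSMUSG00000049858, chromosome 10) was the 1 tested member with a higher mean in overexpressing cells. It encodes sulfite oxidase, which detoxifies the sulfite formed from cysteine. It had 687 and 673 normalised reads in controls against 888 and 823 with overexpression. Both overexpressing libraries lay above both wild type libraries, as they did for 20.8% of all genes tested. The log2 difference was 0.33 (SE 0.104), with 95% limits of 0.08 to 0.58, and Suox was not past the threshold. Genes of chromosome 10 had a median log2 difference of 0.14 over 752 tested genes, and after subtraction of each chromosome's own median Suox stood at 0.19 (SE 0.105).

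The genes that build the cofactor had log2 differences with 95% limits between -0.44 and 0.18. Mocs1 (ENSMUSG00000064120, chromosome 17) makes the first pterin intermediate, and had 455 and 495 normalised reads in controls against 454 and 415 with overexpression. Its groups only just parted, at 455 against 454. The log2 difference was -0.13, with limits of -0.44 to 0.18. Mocs2 (ENSMUSG00000015536, chromosome 13), which encodes both subunits of molybdopterin synthase, had 710 and 714 against 642 and 691. Both overexpressing libraries were lower, with a log2 difference of -0.10 and limits of -0.36 to 0.16. Gphn (ENSMUSG00000047454, chromosome 12), gephyrin, inserts the metal and also anchors receptors at inhibitory synapses. It had 914 and 999 against 926 and 804, which overlap, and a log2 difference of -0.15 with limits of -0.43 to 0.14. In the reference annotation Gphn and Mocs1 overlap genes of the table, so part of their reads may be shared. With 1 library left out the log2 difference ran from -0.19 to -0.06 for Mocs1, from -0.15 to -0.04 for Mocs2 and from -0.25 to -0.05 for Gphn.

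Over the 7 tested members, 6 lay below and 1 above 0, with a median log2 difference of -0.13, against 0.01 for all genes tested. The libraries of the 2 groups did not overlap in 4 of the 7, and in 39.1% of all genes tested. Apart from Aox3, the 95% limits of the members lay between -0.56 and 0.58, so that none of the 6 included a 2-fold change. Their standard errors were 0.0805 to 0.156, and the median over all genes was 0.133. Per kilobase in control cells, the order from high to low was Xdh at 4385, Aox3 at 796, Mocs2 at 384, Gphn at 290, Suox at 272, and Aox1 and Mocs1 both at 184 normalised reads. Gphn at 277 and 303 and Suox at 275 and 270 did not part beyond the spread of their libraries, and neither did Aox1 and Mocs1. In overexpressing cells Aox3 was at 1.26, and Suox at 343 stood above Gphn at 262. Aox3 passed the filter through its wild type libraries, so its place among the tested genes in overexpressing cells is not ranked.

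**Figure D3:**
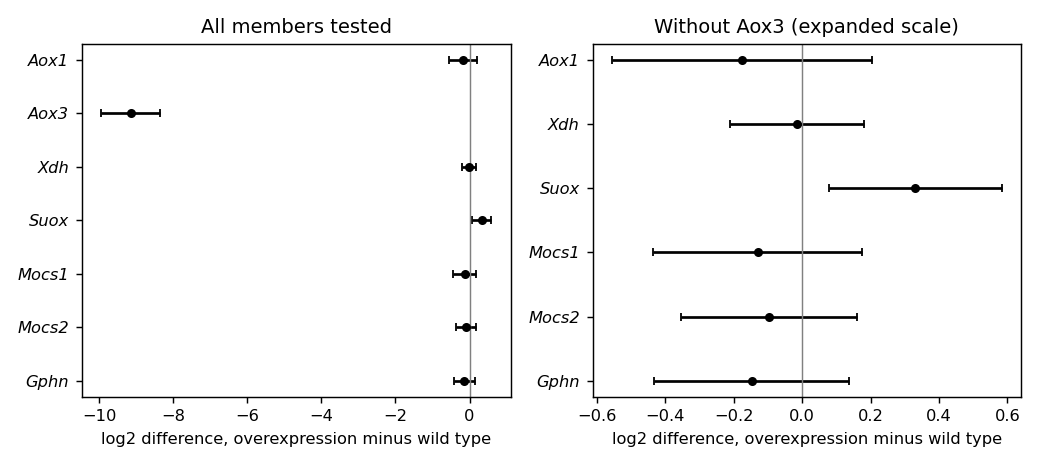
Log2 difference, overexpression minus wild type, with 95% limits from limma (bars), for the 7 tested members on the left and without Aox3 on an expanded axis on the right. Aox3 lies at -9.14. The limits of Suox lie above 0, and those of the other 5 on the right include 0.

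Other genes of cofactor supply and use had 10 of 11 members tested, of which 6 lay above and 4 below 0, with a median of 0.01. Of these, 0 were past the threshold and 0 had an unadjusted limma p under 0.05. The shares over all genes tested were 0.193% and 7.92%. Mocs3, which activates molybdopterin synthase with sulfur, had 112 and 159 normalised reads in controls against 144 and 183 with overexpression (log2 difference 0.28, SE 0.243). Cyb5b, the outer mitochondrial cytochrome b5 that feeds electrons to the amidoxime-reducing molybdenum enzymes, stood at -0.07 (SE 0.0709). Those enzymes themselves, and the sulfur donor Nfs1, fall outside the naming rule and were added with their values known. Marc2 had 2301 and 2614 against 2713 and 2268, a log2 difference of 0.02, and Marc1 was rare, at 17.6 and 6.32 against 10 and 10.2. Nfs1 stood at 0.02.

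Aldehyde oxidases and xanthine dehydrogenase also carry iron-sulfur clusters. Of 21 genes of cluster assembly, all tested, 11 lay above and 10 below 0, with a median of 0.001. Past the threshold were 0, and 0 had an unadjusted limma p under 0.05, against 0.193% and 7.92% of all genes tested. Mms19, which passes clusters to cytosolic and nuclear proteins, stood at -0.20 (limma adjusted p = 0.662).

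Of 19 genes of cysteine, sulfite and sulfate handling, 18 were tested, 7 above and 11 below 0, with a median of -0.05. None was past the threshold, against 0.193% of all genes tested. An unadjusted limma p under 0.05 was found for 1 gene, against 7.92% of all genes tested. That gene was Papss2, which makes the sulfate donor PAPS. It had 106 and 88.5 normalised reads in controls against 270 and 241 with overexpression. Both overexpressing libraries lay well above wild type (log2 difference 1.39, SE 0.186), and the adjusted p was 0.0765 by limma with its trend. With robust variances it passed. Papss1, of the same function, was far more abundant and stood at -0.06. Ado, a thiol dioxygenase on chromosome 10, stood at 0.15. Gadl1, a decarboxylase of cysteine sulfinate named here for its size, had the largest value of the list, 2.87, with 0 and 64.2 normalised reads in controls against 51 and 66.4 with overexpression. Control replicate 1 alone stood apart, and the groups overlapped. For purine turnover around Xdh, 10 of 17 genes were tested, 7 above and 3 below 0, with a median of 0.03 and 0 past the threshold (0 at an unadjusted p under 0.05). Adk, adenosine kinase, stood at -0.16, and Ampd3, an AMP deaminase, at 0.24.

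Other enzymes that act on aldehydes had 20 of 26 genes tested, 6 above and 14 below 0, with a median of -0.08. In this list 0 genes were past the threshold and 4 had an unadjusted limma p under 0.05, against 0.193% and 7.92% of all genes tested. The groups did not overlap for 14 of the 20, against 39.1% of all genes tested. With overexpression 4 were higher and 10 lower, against 20.8% and 18.3% of all genes tested. Aldh1l1, a folate enzyme, had 57.8 and 65.3 normalised reads in controls against 14 and 12.4 with overexpression (log2 difference -2.14, SE 0.332, adjusted p = 0.118). Aldh5a1, succinic semialdehyde dehydrogenase, had 94.3 and 83.2 against 208 and 181 (log2 difference 1.12, SE 0.192, adjusted p = 0.160). The libraries of each pair lay close together, and the 2 genes lay on opposite sides of wild type. The other 2 with an unadjusted p under 0.05, Aldh18a1 of proline synthesis at -0.31 and the alcohol dehydrogenase Adh7 at -0.30, were both lower with overexpression (limma adjusted p = 0.351 and 0.352), and are named outside the rule. Retinal is a substrate of aldehyde oxidases, and of 21 retinoid genes 13 were tested, 5 above and 8 below 0, with a median of -0.01. Past the threshold were 0, and 1 had an unadjusted limma p under 0.05, against 0.193% and 7.92% of all genes tested. That was Rdh10, which forms retinal, with 765 and 775 normalised reads in controls against 581 and 619 with overexpression (log2 difference -0.36, limma adjusted p = 0.460). Cyp26b1, which breaks down retinoic acid, stood at 0.41.

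Gephyrin's partners at inhibitory synapses were mostly rare or not found among the deposited genes. Of the 20, 5 were tested, 3 above and 2 below 0, with a median of 0.02. Past the threshold were 0, and 0 had an unadjusted limma p under 0.05, against 0.193% and 7.92% of all genes tested. Dynll1, a dynein light chain that binds gephyrin, stood at 0.42 with overexpression replicate 2 far above the other 3 libraries.

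**Figure D4:**
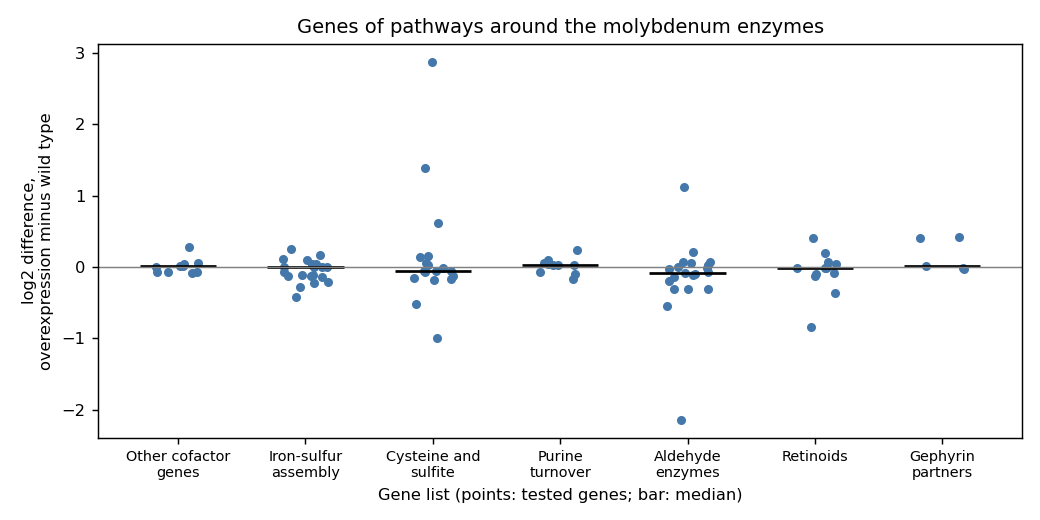
Log2 difference, overexpression minus wild type, of the tested genes of 7 lists (points) with the median of each list (black bar). All 7 medians lie between -0.08 and 0.03, and the points farthest from 0 are Gadl1 at 2.87 and Aldh1l1 at -2.14.

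By the distance between log2 profiles over the 4 libraries, each centred on its own mean, the genes most like Aox3 were Mme, Gm14308 and Ces1d, at distances of 3.78, 4.78 and 4.80. Mme, encoding the peptidase neprilysin, stood at 46.5 and 37.9 normalised reads in controls and was listed at 0 in both overexpressing libraries. Gm14308 had 18.9 and 22.1 against 0 and 0. Ces1d, a carboxylesterase that like the aldehyde oxidases acts on drugs, had 78.0 and 51.6 against 0 and 3.65. By this choice all 3 had more reads in both wild type libraries than in the overexpressing ones, where they stood near or at 0. The shared pattern is therefore a description only. Their wild type levels, far below those of Aox3, carried them past the filter. None was past the threshold (limma adjusted p = 0.0584, 0.160 and 0.150). Profiles of 4 libraries in 2 groups are ordered mainly by the size of the group difference.

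Markers of other cell types were followed beside Aox3, since in bulk RNA fewer cells of a type and less RNA per cell cannot be told apart. Of 12 hepatocyte markers 2 were found among the deposited genes and 0 tested. Their summed level was 0 to 2.51 normalised reads in wild type and 19.0 to 27 in overexpressing libraries. These reads are too few for a direction to be read from them. Astrocyte markers, 3 of 7 tested, summed to 5058 to 5137 and 6489 to 6784, but they went both ways, with log2 differences of 0.49 for Slc1a3, 0.19 for Gja1 and -1.14 for Aldoc. Microglia and leukocyte markers, 3 of 8 tested, summed to 1970 to 2338 and 1643 to 1787, with Tmem119 at -0.38, Aif1 at -0.13 and Cd68 at 0.54. Endothelial markers, 3 of 7 tested, summed to 49.0 to 69.5 and 43.8 to 69. Over these lists and the neuronal and fibroblast lists 0 of 21 tested genes were past the threshold, and 5 had an unadjusted limma p under 0.05, against 7.92% of all genes tested. Of the 5, Slc1a3 was higher with overexpression, and Aldoc, Tmem119 and the fibroblast markers Col3a1 (-0.37) and Postn (-0.79) were lower. The part of other cell types in the Aox3 difference was not tested.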

How the data were processed

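Trizol RNA was made into TruSeq libraries and sequenced by BGISEQ-500 procedures, per the labels' protocols. HISAT, Cufflinks and mm9 are listed in the submitters' processing notes. Counting, strand use and scaling are not given in the sources used here. Values were deposited as log2 of a normalised read count plus 1: after the log2 was undone, 100% of values up to 1000 reads were whole multiples of 1 step per library, within 0.01 read. The step was 1.26 and 1.05 normalised reads for the controls and 1.00 and 0.730 for the overexpressing libraries.

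Limma 3.58.1 (R 4.3.3) with a variance trend was fitted to the log2 values with the group as the sole covariate, for genes with a mean of at least 10 normalised reads. P-values are two-sided, adjusted by Benjamini-Hochberg over all tested genes, with a threshold of 0.05. The variance was pooled across genes (4.10 prior degrees of freedom), since 2 libraries against 2 cannot give an exact p below 0.333. With no separate cultures named, p-values reflect the spread of these libraries alone, which may be technical. Log2 differences understate the change of low genes. The fit was also run on simulated counts with a fixed spread and changes far smaller than that of Aox3. The outcome is not given here, and nothing above rests on it.

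Members, lists and settings were chosen with earlier results of these data known. Named were all members, the genes of each list past the threshold or else the 2 with the smallest p, all tested neighbours, the 3 profiles nearest to Aox3, and Nsmce1. Some genes that this rule names are counted but not reported here. Symbols turned into dates by a spreadsheet (26, of which 25 were restored) came from Ensembl identifiers. Transcript lengths, chromosomes and overlaps came from GENCODE M21, and neighbours and promoters from RefSeq, both on GRCm38. Promoters were found for 7 of the 8 members.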

Additional observations from a re-analysis of the deposited data

How the results depend on the processing

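The log2 difference of Aox3 was -8.43 with a pseudocount of 5, and -9.62 to -8.67 with 1 library left out. With chromosome medians removed, chosen after seeing the data, Suox went to 0.19. Of the 112 member values under alternatives 108 kept their sign, the others being Aox1 without overexpression replicate 2 and Xdh in that fit, with quantile normalization and with chromosome medians removed.

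The 30 calls (16 higher, 14 lower) became 16 (7 and 9) with no filter, 9 (5 and 4) without trend, 72 (32 and 40) with robust variances, 18 with quantile normalization (8 higher) and 69 at an adjusted p under 0.1. Higher calls were 10 with a pseudocount of 0.1 and 10 with voom on recovered reads. All calls came to 2 and 9 without wild type replicates 1 and 2, and to 51 and 75 without overexpression replicates 1 and 2, with 2 to 33 higher and 0 to 42 lower. The lone library of a group is then assumed to vary like the other group. Papss2 made 1 call in the sulfur list with robust variances. The replicate block gave 60 calls, 36 of them lower. Deviations of same-numbered libraries were not correlated across genes (r = 0.0068). That cannot show whether such libraries shared a culture or day, since shared effects may differ in direction between genes. Counting limits Aox4, Aox2 and the remaining Aox3 reads.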
